A study of Mus musculus with 8 samples.

Results

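Fasted PBS livers were compared with PBS livers, which are the controls of the acetaminophen (APAP) and the thioacetamide (TAA) models of acute liver failure in this series. They are 4 of the 8 livers sequenced, 2 in each group. All came from male wild-type (WT) mice aged 8 to 9 weeks and were taken 24 h after an injection of PBS. The PBS mice were fed. The fasted PBS mice were kept without food overnight before the injection. For APAP-treated mice the fast is stated to have gone on for 6 h after the dose, while the hour at which the fasted PBS mice were fed again is not given in the sources used here. The study's methods place all experiments within the same hours of the early afternoon, with livers taken a day after dosing. Each group was 2 mice, so p-values rest on the spread between 2 livers. The groups were deposited in separate tables, as whole-number counts for the PBS livers and as estimated counts for the fasted PBS livers. TAA was given intraperitoneally and APAP intragastrically, and the route of PBS is not stated for either control. Feeding, table, counting method and any difference of route cannot be told apart in any value below.

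The fed liver stores glucose as glycogen and makes fatty acids under the control of insulin. In a fast, glucagon and glucocorticoids turn on gluconeogenesis, and fatty acids released from adipose tissue activate PPAR alpha, a nuclear receptor that turns on fatty acid oxidation and ketone body synthesis. The hepatic clock, a loop of transcription factors with a period of about a day, is set in part by the hours of feeding, and refeeding after a fast loads the endoplasmic reticulum with newly made secretory protein.

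Genes were matched by Ensembl ID, and of 21721 protein-coding genes in both tables, 107 that have many copies elsewhere in the genome (ribosomal protein genes, Gapdh and mitochondrially encoded genes) were left out. PBS livers held 34160668 and 36403898 counts in the genes kept and fasted PBS livers 23991596 and 19886979. Levels are given as CPM, a gene's counts relative to the TMM-scaled total of its library, in the order PBS replicates 1 and 2, then fasted PBS replicates 1 and 2. Log2 fold changes are fasted PBS over PBS, with approximate standard errors (SE), and a gene was called at an adjusted p under 0.05 in edgeR's quasi-likelihood test. Of 13195 genes tested, 1584 were higher (12.0%) and 1662 lower (12.6%) in fasted PBS livers, with a median log2 fold change of -0.01. The 2 fasted PBS livers lay closest to each other, at a root mean square log2 difference of 0.288, against 0.392 between the PBS livers and 0.712 to 0.83 between groups. Many of the genes named below were chosen after their values were seen, and they are listed with the methods. Leaving out a fasted PBS liver cost most calls. Without replicate 1 of them, 612 genes were higher and 596 lower, and without replicate 2, 708 and 796. Genes whose call was lost without a named liver are given beside each group. Scaling to library totals alone lowered the median of all genes by 0.27 on the log2 scale and left 818 genes higher and 2975 lower, so that 21.6% of calls were higher, against 48.8%. Upper quartile factors gave 36.9%. Lists are therefore described relative to the median gene, with the value under library totals where it turns their direction.

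**Figure D1:**
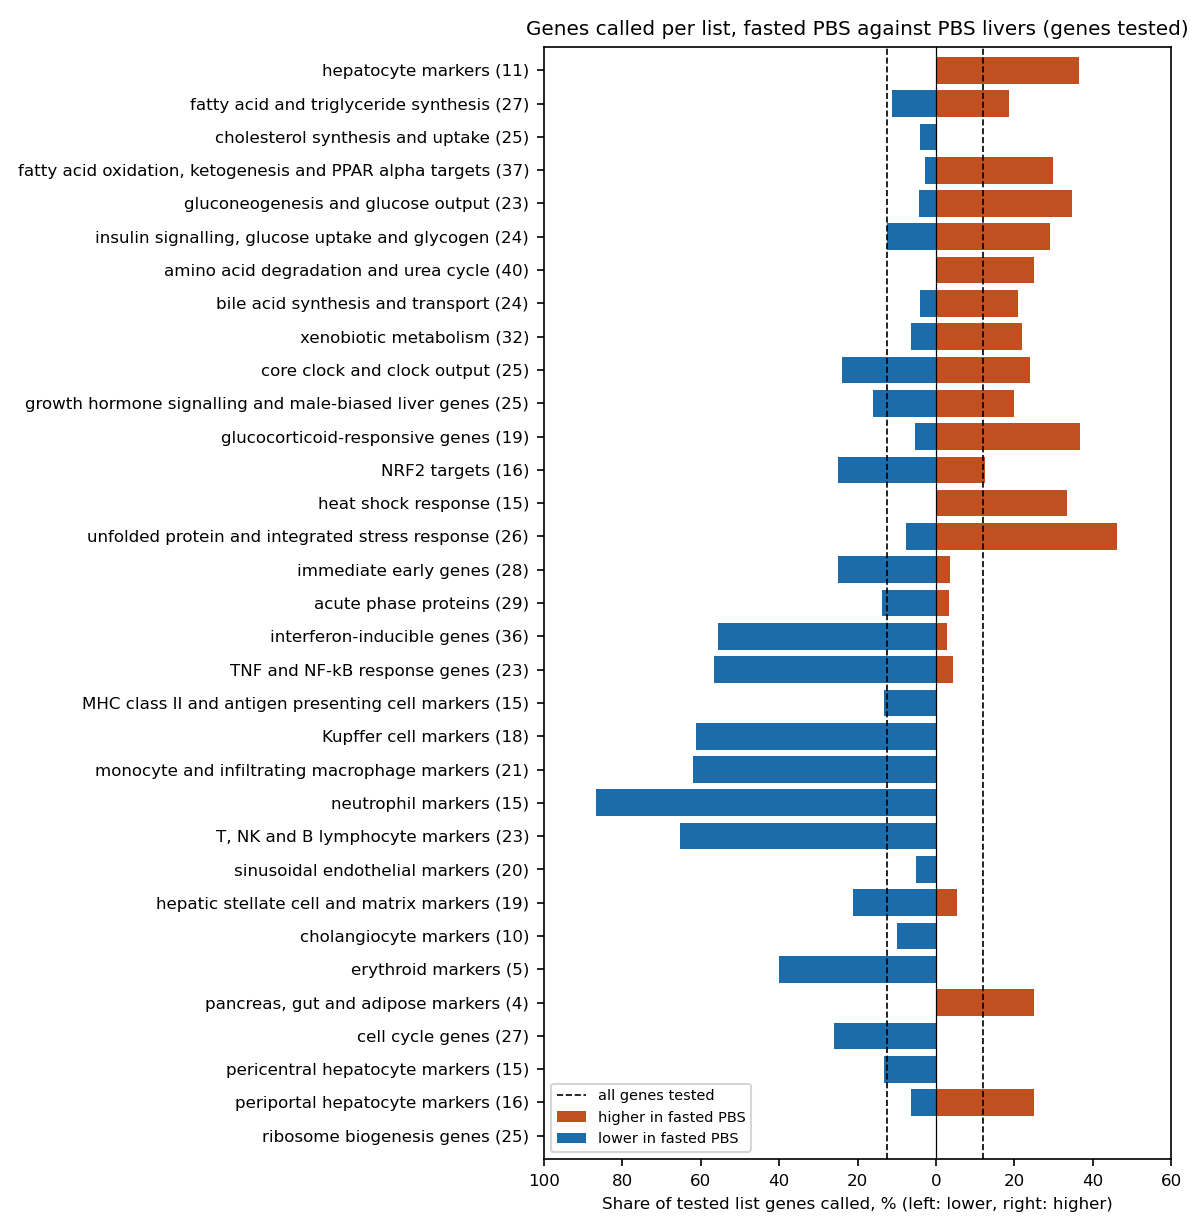
Share of the tested genes of each list that were called higher (right, orange) or lower (left, blue) in fasted PBS livers, in percent, with the number of genes tested in brackets and dashed lines at the shares over all genes tested, 12.0% and 12.6%. Neutrophil markers had the highest share called lower among these lists (13 of 15) and genes of the unfolded protein and integrated stress response the highest share called higher (12 of 26).

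Genes of gluconeogenesis and glucose output were more often called higher than all genes were. Of 23 tested, 8 rose and 1 fell, with a median log2 fold change of 0.36. Pck1, which encodes the cytosolic phosphoenolpyruvate carboxykinase that commits carbon to gluconeogenesis, stood at 2340 and 2041 CPM in PBS livers and at 4057 and 3144 CPM in fasted PBS livers. Both fasted PBS livers lay above both PBS livers, by a log2 fold change of 0.72 (SE 0.18, adjusted p = 0.0244). G6pc, the glucose-6-phosphatase that releases free glucose, stood at 334.1 and 280.3 CPM against 412.7 and 462.9 CPM (log2 fold change 0.51, SE 0.15, adjusted p = 0.0436). Slc37a4, which carries glucose-6-phosphate to that enzyme, rose by 0.88 (adjusted p = 0.00481). Mpc1, a subunit of the mitochondrial pyruvate carrier, rose by 1.10 (SE 0.16, adjusted p = 0.0028), and Klf15, a transcription factor of amino acid use in fasting, by 1.21 (SE 0.18, adjusted p = 0.00342). Fbp1 and Pcx, the other enzymes of the pathway, had log2 fold changes of 0.05 and -0.16 and were not called. Crtc2, a coactivator of the glucagon response, fell by 0.45 (adjusted p = 0.0486). Calls of Pck1, G6pc and Crtc2 were lost without PBS replicate 2 or without either fasted PBS liver, and that of Slc37a4 without fasted PBS replicate 1. The list held 2 higher genes without fasted PBS replicate 1 and 5 without replicate 2. Under library totals alone it held 4 higher and 3 lower genes, with a median of 0.09.

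Genes that glucocorticoids induce had the highest median log2 fold change among the metabolic and hormonal lists, 0.70, with 7 of 19 tested genes higher and 1 lower. Tsc22d3, which encodes the glucocorticoid-induced leucine zipper, stood at 43.91 and 29.75 CPM in PBS livers and at 197.5 and 151 CPM in fasted PBS livers, a log2 fold change of 2.24 (SE 0.24, adjusted p = 0.00188). Ddit4, an inhibitor of mTORC1 that stress and glucocorticoids induce, stood at 3.424 and 2.712 CPM against 20.97 and 16.79 CPM (log2 fold change 2.62, SE 0.21, adjusted p = 0.00028). In neither gene did the groups overlap, and both calls held without any 1 liver. Tat, the tyrosine aminotransferase that is a classical glucocorticoid target, had 1040 and 701.5 CPM against 2842 and 1672 CPM (log2 fold change 1.37, SE 0.33, adjusted p = 0.0353, lost without PBS replicate 2 or fasted PBS replicate 1). Fkbp5 and Klf9, which are induced by the same receptor, rose by 0.64 and 0.83, and both calls were lost without either fasted PBS liver. Zbtb16 had 13.46 and 4.528 CPM against 79.5 and 78.89 CPM and was not called (adjusted p = 0.0613), the PBS livers differing widely from each other. Nr3c1, the glucocorticoid receptor itself, had a log2 fold change of -0.39 (adjusted p = 0.0586). Under library totals alone 4 genes were higher and 2 lower.

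Genes of insulin action, glucose uptake and glycogen went both ways, with 7 of 24 tested genes higher and 3 lower (median log2 fold change 0.41). Ppp1r3c, which targets protein phosphatase to glycogen and promotes its synthesis, stood at 16.49 and 16.42 CPM in PBS livers and at 73.7 and 66.7 CPM in fasted PBS livers. Its log2 fold change was 2.09 (SE 0.13, adjusted p = 7.4e-05). Igfbp1, a secreted binding protein that insulin represses, had 94.12 and 105.7 CPM against 253.1 and 464.2 CPM (log2 fold change 1.84, SE 0.31, adjusted p = 0.0143). Its call was lost without either PBS liver. Irs2, the insulin receptor substrate that insulin also represses, moved the other way, from 41.35 and 54.49 CPM to 25.31 and 24.12 CPM (log2 fold change -0.95, SE 0.16, adjusted p = 0.00486, lost without either fasted PBS liver). Socs3, a feedback inhibitor of cytokine and insulin signalling, fell by 1.10 (adjusted p = 0.00747), a call lost without fasted PBS replicate 1. Khk, the ketohexokinase of fructose use, rose by 0.97 (adjusted p = 0.00261). Pygl, the glycogen phosphorylase of liver, rose by 0.56 (adjusted p = 0.0213), a call lost without either fasted PBS liver, while Gys2, its glycogen synthase, had -0.24 (adjusted p = 0.439). Of this list 3 genes rose and 0 fell without fasted PBS replicate 1, and 4 rose and 1 fell without replicate 2.

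Of 37 tested genes of fatty acid oxidation, ketogenesis and PPAR alpha targets, 11 rose and 1 fell, with a median log2 fold change of 0.44. Ppara itself stood at 111.8 and 144.3 CPM in PBS livers and at 317.5 and 320 CPM in fasted PBS livers, a log2 fold change of 1.32 (SE 0.16, adjusted p = 0.00125). Angptl4, a PPAR alpha target that inhibits lipoprotein lipase, stood at 48.74 and 70.76 CPM against 226.3 and 228.9 CPM (log2 fold change 1.93, SE 0.19, adjusted p = 0.00073). Both calls held without any 1 liver. Among enzymes of the oxidation cycle, Acads rose by 0.86, Hadhb by 0.69, Acadm by 0.63 and Acadvl by 0.61, and Bdh1, which interconverts ketone bodies, rose by 0.87. These 5 calls were lost without fasted PBS replicate 1, and those of Hadhb, Acadm, Acadvl and Bdh1 also without replicate 2. Cpt1a, which admits fatty acids to mitochondria, was the 1 gene that fell, from 501.7 and 584.1 CPM to 355.2 and 398.8 CPM (log2 fold change -0.53, SE 0.15, adjusted p = 0.038), a call lost without PBS replicate 2 or either fasted PBS liver. Cyp4a14, a strongly induced PPAR alpha target, stood at 28.18, 82.17, 375.3 and 956.8 CPM and was not called (adjusted p = 0.112), although the groups did not overlap. Pdk4 and Fgf21, which rise in long fasts, were low in all 4 livers and were not called. Pdk4 stood at 3.241 and 1.842 CPM in PBS livers and at 4.477 and 6.204 CPM in fasted PBS livers. Its groups did not overlap (log2 fold change 1.07, SE 0.34, adjusted p = 0.0576). Fgf21 stood at 1.228, 0.7931, 0.6126 and 4.225 CPM (adjusted p = 0.377). The list held 5 higher genes without either fasted PBS liver and 21 without PBS replicate 2.

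Genes of fatty acid and triglyceride synthesis were called about as often as all genes, with 5 of 27 higher and 3 lower and a median of 0.02. Srebf1, the lipogenic transcription factor that insulin induces, stood at 261.5, 186.2, 252.4 and 132.7 CPM, and Fasn, the fatty acid synthase, at 538.3, 342.1, 599.4 and 401.9 CPM. In both genes the groups overlapped, and neither was called (adjusted p = 0.718 and 0.684), nor was Scd1, the stearoyl-CoA desaturase (log2 fold change -0.27, adjusted p = 0.322). Insig2, which retains the SREBP precursors in the endoplasmic reticulum and has a transcript that fasting raises, stood at 46.78 and 55.57 CPM against 173.2 and 203.7 CPM (log2 fold change 1.88, SE 0.15, adjusted p = 0.00026). Gpam, which starts triglyceride synthesis, rose by 1.28 (SE 0.17, adjusted p = 0.00182). Aacs, which returns ketone bodies to lipid synthesis, fell by 1.35 and G6pdx, an NADPH source, by 1.86 (adjusted p = 0.00386 and 0.00274). These 4 calls held without any 1 liver. Leaving out either fasted PBS liver left 2 higher and 2 lower genes, and library totals alone 2 and 4 with a median of -0.24. Of 25 genes of cholesterol synthesis and uptake, 0 rose and 1 fell, Srebf2 (log2 fold change -0.51, adjusted p = 0.0215), whose call was lost without either fasted PBS liver. Without PBS replicate 1, 6 cholesterol genes were higher and 1 lower, and without PBS replicate 2, 0 were higher and 10 lower, so the direction of this list rested on which PBS liver was used.

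Of 40 genes of amino acid degradation and the urea cycle, 10 rose and 0 fell, with a median log2 fold change of 0.25. Tdo2, which opens the tryptophan ring, stood at 1232 and 1206 CPM against 1913 and 1873 CPM (log2 fold change 0.63, SE 0.14, adjusted p = 0.0157, lost without either fasted PBS liver). Kynu, further along the same pathway, rose by 1.02 and Slc38a2, an amino acid carrier, by 1.01 (adjusted p = 0.00195 and 0.00206), and both calls held without any 1 liver. Of the urea cycle, Asl rose by 0.64 (adjusted p = 0.0354) and the mitochondrial ornithine carrier Slc25a15 by 0.62 (adjusted p = 0.0171), while Cps1, Otc, Ass1 and Arg1 had log2 fold changes of 0.23, 0.42, 0.62 and 0.19 and were not called. Asl lost its call without PBS replicate 1 or either fasted PBS liver, and Slc25a15 without either fasted PBS liver. The list held 2 higher genes without fasted PBS replicate 1 and 5 without replicate 2. Under library totals alone it held 3 higher and 2 lower, with a median of -0.02.

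The hepatocyte identity of the tissue was plain in all 4 livers. Alb, which encodes albumin, stood at 44530 and 66150 CPM in PBS livers and at 104800 and 89200 CPM in fasted PBS livers (log2 fold change 0.81, adjusted p = 0.0374, lost without PBS replicate 1 or either fasted PBS liver). Of 11 hepatocyte markers tested, 4 were higher and 0 lower, but 2 were higher without PBS replicate 1, 0 without either fasted PBS liver and 1 was higher and 1 lower under library totals alone. Of 15 markers of pericentral hepatocytes 0 rose and 2 fell (Tbx3 and Rhbg), and Glul, the glutamine synthetase of the cells next to the central vein, was at 1117, 1010, 1077 and 1172 CPM. Of 16 periportal markers 4 rose and 1 fell (median 0.24), while under library totals alone 1 rose and 2 fell (median -0.03). Etnppl, a lyase of phosphoethanolamine, stood at 65.08 and 56.77 CPM against 207.8 and 160.7 CPM (log2 fold change 1.60, SE 0.16, adjusted p = 0.00064). Ctsc, a lysosomal protease, fell by 1.31 (adjusted p = 0.00092), and both calls held without any 1 liver. Tbx3 lost its call without either fasted PBS liver and Rhbg without replicate 2, and 2 periportal genes were higher without PBS replicate 1 and 1 without either fasted PBS liver.

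Cyp7a1, the rate-limiting enzyme of bile acid synthesis, stood at 433.4 and 324.5 CPM in PBS livers and at 118 and 127.3 CPM in fasted PBS livers, a log2 fold change of -1.63 (SE 0.17, adjusted p = 0.00073). Its call held without any 1 liver and was lost when the livers given TAA and APAP entered the fit. That fit lost 39 of the 131 calls of genes named by the rule given with the methods. Nr0b2, which encodes SHP, a repressor of Cyp7a1, stood at 26.76 and 33.8 CPM against 43.07 and 48.99 CPM (log2 fold change 0.60, SE 0.15, adjusted p = 0.0251). Klb, the co-receptor through which FGF19-family hormones repress bile acid synthesis, rose by 0.67 (adjusted p = 0.00977). Nr0b2 lost its call without PBS replicate 1 or either fasted PBS liver and Klb without fasted PBS replicate 2. Hsd3b7, which acts on the product of Cyp7a1, rose by 1.53 (adjusted p = 0.00783), a call lost without either fasted PBS liver, while Cyp8b1 and Cyp27a1 had -0.18 and 0.17 and were not called. In all, 5 of 24 genes rose and 1 fell (median 0.19). Without fasted PBS replicates 1 and 2 it was 2 and 0 that rose, and library totals alone gave 2 higher and 3 lower with a median of -0.07. Among 32 genes of xenobiotic metabolism, 7 rose and 2 fell. Gstm2 and Cyp3a25 rose by 1.31 and 1.07 (adjusted p = 0.00157 and 0.00246), both without loss in any fit that left out a liver, and Por, the reductase of the microsomal cytochromes P450, fell by 0.54 (adjusted p = 0.032). Cyp2e1, which activates APAP, was at 6537, 6778, 7295 and 7061 CPM and was not called (adjusted p = 0.637). Cyp2a4, the other gene that fell, stood at 51.8 and 27.83 CPM against 0.754 and 3.049 CPM (log2 fold change -4.42, SE 0.80, adjusted p = 0.0461). It overlaps another annotated gene. Cyp2a4 lost its call without PBS replicate 1, and Por without PBS replicate 2 or either fasted PBS liver. Of the xenobiotic genes 13 were higher and 4 lower without PBS replicate 2, 2 higher without fasted PBS replicate 1 and 4 without replicate 2, and library totals alone gave 2 higher and 6 lower with a median of -0.07. Gstm genes and Cyp3a genes have close paralogs whose reads may have been split differently in each table.

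**Figure D2:**
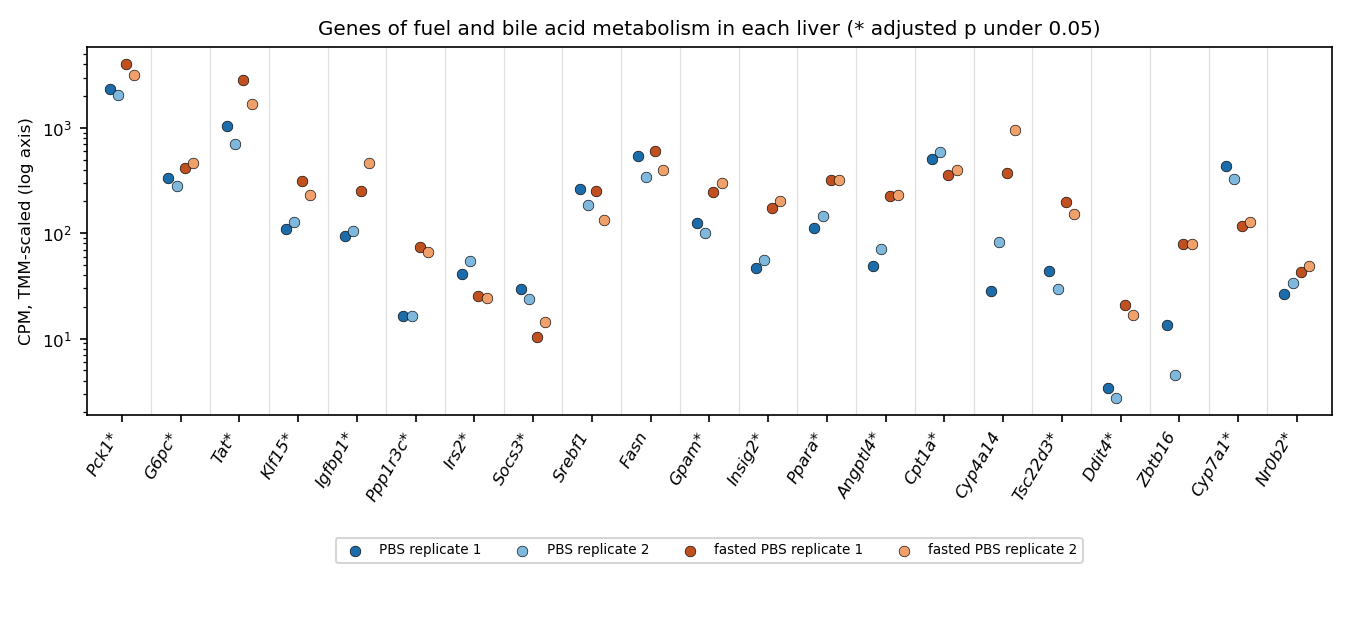
CPM of 21 metabolic genes in each of the 4 livers on a log axis, 1 point per liver, with an asterisk on called genes. Ppp1r3c, Insig2, Ppara, Angptl4, Tsc22d3 and Ddit4 were higher and Cyp7a1 lower in both fasted PBS livers than in both PBS livers, while Srebf1 and Fasn overlapped.

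Clock genes went both ways. In the loop, the activators CLOCK and BMAL1 (the product of Arntl) turn on the Per and Cry genes, whose products inhibit them. Of 25 genes of the core clock and its outputs, 6 were higher and 6 lower, with a median log2 fold change of 0.01, and under library totals alone 3 and 9, with a median of -0.25. Clock stood at 10.87 and 16.94 CPM in PBS livers and at 39.49 and 46.32 CPM in fasted PBS livers, a log2 fold change of 1.62 (SE 0.23, adjusted p = 0.00406). Arntl stood at 1.045 and 1.612 CPM against 3.676 and 3.53 CPM (log2 fold change 1.44, SE 0.35, adjusted p = 0.0217). Npas2, a paralog of Clock that can take its place, was nearly silent in PBS livers, with 2 and 4 counts against 16 and 12 (log2 fold change 3.10, adjusted p = 0.0161). Every activator was thus higher in both fasted PBS livers, though Arntl and Npas2 lost their calls without PBS replicate 1 or either fasted PBS liver.

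Among the repressors, Per3 stood at 89.33 and 85.34 CPM against 29.78 and 17.22 CPM (log2 fold change -1.89, SE 0.27, adjusted p = 0.00766). Per2 stood at 68.4 and 48.25 CPM against 24.32 and 14.17 CPM (log2 fold change -1.60, SE 0.32, adjusted p = 0.028, lost without PBS replicate 1). Bhlhe41, the repressor DEC2, fell by 1.18 (adjusted p = 0.0185, lost without PBS replicate 2 or fasted PBS replicate 2). Per1, Cry1 and Cry2 were not called, with log2 fold changes of 0.70, -0.38 and -0.13. Nr1d1 and Nr1d2, which encode the receptors REV-ERB alpha and beta that repress Arntl, had 0.73 and 0.01 and were not called. Among outputs, Wee1, a kinase that delays mitosis, fell from 26.27 and 22.28 CPM to 6.739 and 5.349 CPM (log2 fold change -2.00, SE 0.18, adjusted p = 0.00043). Noct, a clock-controlled phosphatase, rose by 1.18 (adjusted p = 0.0469, lost without PBS replicate 2 or fasted PBS replicate 1) and Nfil3, a repressor at D-boxes, by 0.58 (adjusted p = 0.0201, lost without either fasted PBS liver). The activators at D-boxes, Dbp, Tef and Hlf, had -0.86, -0.41 and 0.28 and were not called (adjusted p = 0.0715, 0.0631 and 0.129). Clock, Per3 and Wee1 kept their calls without any 1 liver. The fasted PBS livers also differed from each other in this system. Ciart was at 26.34 CPM in replicate 1 and 5.349 CPM in replicate 2, on either side of the PBS livers at 15.86 and 12.89 CPM, and its log2 fold change of 0.15 became -1.41 without replicate 1. The list held 3 higher genes without PBS replicate 1, 1 higher and 8 lower genes without fasted PBS replicate 1 and 4 and 4 without replicate 2. Many clock genes overlap another annotated gene, and where such genes were left out, 6 remained to be tested, with 1 higher and 1 lower.

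The promoter of Per3 is shown for the element through which Dbp, Tef, Hlf and Nfil3 act. The D-box was searched on both strands as TTANGTAA, and the window runs from 250 bases before to 50 bases after the start of the gene (RefSeq, GRCm38.p6). Capitals mark the matches.
Per3, chr4:151044616-151044915, minus strand: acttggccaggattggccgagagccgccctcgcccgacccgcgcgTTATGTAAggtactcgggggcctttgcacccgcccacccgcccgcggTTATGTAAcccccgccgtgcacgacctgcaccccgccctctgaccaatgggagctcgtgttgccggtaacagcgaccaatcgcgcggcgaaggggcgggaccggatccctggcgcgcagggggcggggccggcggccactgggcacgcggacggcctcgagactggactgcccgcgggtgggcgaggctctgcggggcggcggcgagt
Per3 held 2 matches and was the 1 gene with any among the 20 tested clock genes that had a window, against 2.62% of all 16387 protein-coding genes with windows. The E-box of CLOCK and BMAL1 (CACGTG, its own reverse complement) was in 6 of these 20 genes, against 9.19% of all genes. Windows of this length leave out distal elements.

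**Figure D3:**
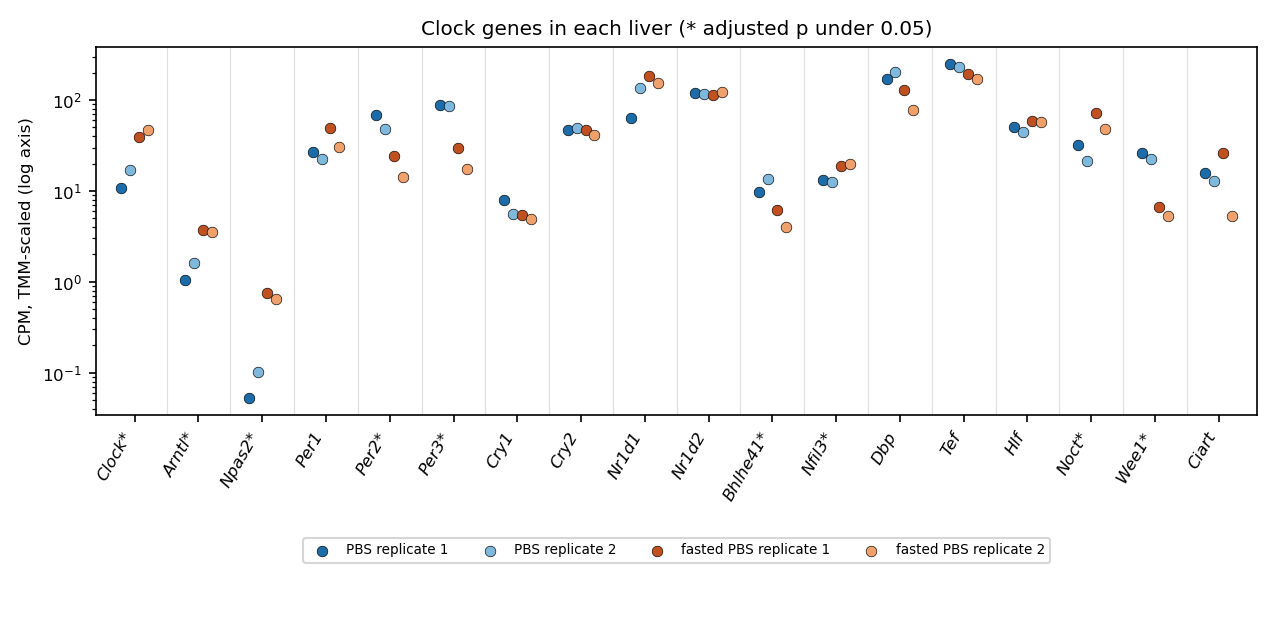
CPM of 18 clock genes in each of the 4 livers on a log axis, 1 point per liver, with an asterisk on called genes. Clock, Arntl and Npas2 were higher and Per2, Per3 and Wee1 lower in both fasted PBS livers than in both PBS livers, while Nr1d2 and Cry2 lay close together in all 4.

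Growth hormone acts on the liver in pulses through STAT5, whose feedback inhibitors are encoded by Cish and Socs2. Cish stood at 69.52 and 72.12 CPM in PBS livers and at 4.477 and 9.628 CPM in fasted PBS livers, a log2 fold change of -3.34 (SE 0.39, adjusted p = 0.00751). Socs2 stood at 27.21 and 24.94 CPM against 9.944 and 9.681 CPM (log2 fold change -1.41, SE 0.14, adjusted p = 0.00059). Ghr, the receptor, Igf1, its main secreted target, and Stat5b had log2 fold changes of 0.14, -0.09 and 0.09 and were not called. Of genes that male livers express more than female livers, Elovl3, a fatty acid elongase, stood at 28.7 and 42.8 CPM against 142.4 and 192.1 CPM (log2 fold change 2.23, SE 0.25, adjusted p = 0.00275), and Hsd3b5 rose by 1.30 (adjusted p = 0.0044). Ugt2b38, a glucuronosyltransferase, fell by 2.88 (adjusted p = 0.0009). These 5 calls held without any 1 liver. In all, 5 of 25 genes were higher and 4 lower (median 0.09, and -0.17 under library totals alone). Ugt2b genes have close paralogs.

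Chaperones of the endoplasmic reticulum were higher in fasted PBS livers. Of 26 tested genes of the unfolded protein and integrated stress response, 12 rose and 2 fell, a share higher of 46.15% against 12.0% over all genes, with a median log2 fold change of 0.48. Hspa5, the HSP70-type chaperone of this compartment (BiP), stood at 341.1 and 316.2 CPM in PBS livers and at 706.1 and 523.3 CPM in fasted PBS livers (log2 fold change 0.90, SE 0.18, adjusted p = 0.00911, lost without fasted PBS replicate 1). Hyou1, its nucleotide exchange factor, stood at 42.84 and 39.83 CPM against 166.7 and 122.1 CPM (log2 fold change 1.80, SE 0.17, adjusted p = 0.00052). Herpud1, a part of the machinery that degrades misfolded proteins, stood at 242.2 and 232.5 CPM against 764.4 and 627.6 CPM (log2 fold change 1.55, SE 0.15, adjusted p = 0.00059). The latter 2 calls, and that of Atf5 (log2 fold change 1.03, adjusted p = 0.0016), held without any 1 liver. Calr, Hsp90b1, Canx and Pdia6, which fold or retain secretory proteins, rose by 0.62, 0.52, 0.47 and 0.75 and lost their calls without either fasted PBS liver, Canx also without PBS replicate 2. The factors that start these responses did not move as a group. Xbp1 fell from 260.4 and 319.3 CPM to 191.9 and 133.7 CPM (log2 fold change -0.83, adjusted p = 0.0247, lost without PBS replicate 2 or fasted PBS replicate 2) and Atf3 by 2.20 (adjusted p = 0.0497, lost without PBS replicate 1 or fasted PBS replicate 1), while Atf4 stood at 109.6, 89.95, 102.4 and 96.97 CPM and Ddit3 had 0.29, and neither was called. The list held 3 higher genes without fasted PBS replicate 1 and 5 without replicate 2, and 6 higher and 2 lower under library totals alone.

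Promoters of 3 chaperone genes are shown for an element they share. The endoplasmic reticulum stress element, which NF-Y and ATF6 bind together, was searched on both strands as CCAAT and CCACG with 9 bases between them, in windows from 250 bases before to 50 bases after the start (RefSeq, GRCm38.p6). Capitals mark the matches.
Hspa5, chr2:34771840-34772139, plus strand: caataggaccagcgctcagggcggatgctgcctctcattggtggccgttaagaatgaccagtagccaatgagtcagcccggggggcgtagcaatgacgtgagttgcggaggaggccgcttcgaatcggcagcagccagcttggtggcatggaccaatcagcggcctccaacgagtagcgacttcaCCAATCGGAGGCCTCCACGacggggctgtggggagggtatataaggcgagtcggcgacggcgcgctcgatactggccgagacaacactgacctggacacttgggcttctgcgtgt
Calr, chr8:84846882-84847181, minus strand: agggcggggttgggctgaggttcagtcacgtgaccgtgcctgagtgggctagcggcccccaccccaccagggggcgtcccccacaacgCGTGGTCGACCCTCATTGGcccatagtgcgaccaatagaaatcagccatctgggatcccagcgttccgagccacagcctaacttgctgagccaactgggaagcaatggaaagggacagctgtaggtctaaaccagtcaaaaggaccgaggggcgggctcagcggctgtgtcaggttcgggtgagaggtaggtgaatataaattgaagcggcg
Hsp90b1, chr10:86705395-86705694, minus strand: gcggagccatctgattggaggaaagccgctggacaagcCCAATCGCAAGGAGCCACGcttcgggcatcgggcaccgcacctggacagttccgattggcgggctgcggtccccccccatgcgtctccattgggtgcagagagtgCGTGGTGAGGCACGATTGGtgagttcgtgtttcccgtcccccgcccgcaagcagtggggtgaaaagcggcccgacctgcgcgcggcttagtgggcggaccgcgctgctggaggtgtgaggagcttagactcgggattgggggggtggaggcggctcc
Hspa5 and Calr held 1 match each, Calr on the reverse strand, and Hsp90b1 held 2. The element was in 0.171% of all 16387 genes with windows and in 7 of the 23 tested genes of the list that had a window. Of the 10 called higher, 6 held it (Hspa5, Hsp90b1, Calr, Canx, Pdia6 and Creld2), and of the other 13, 1 did (Dnajc3, log2 fold change 0.30, adjusted p = 0.125). Chaperone genes were put in the list for being targets of this response, and no test was made of the difference.

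**Figure D4:**
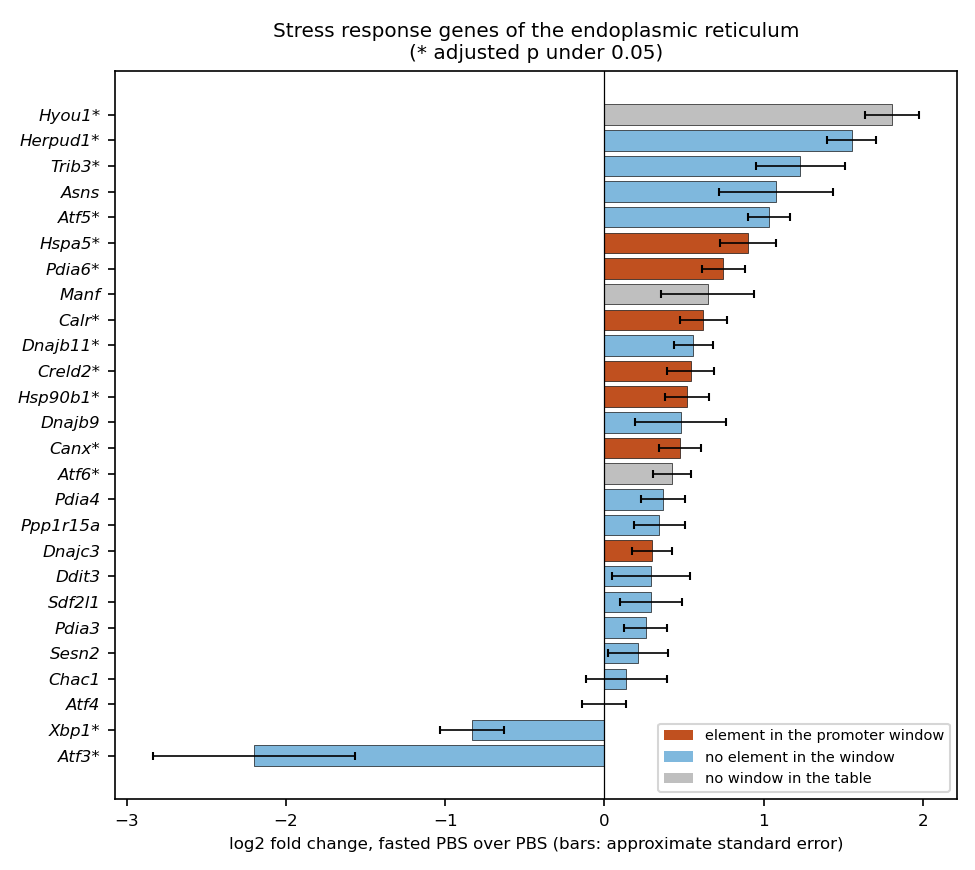
Log2 fold change, fasted PBS over PBS, of the 26 tested genes of the unfolded protein and integrated stress response, with approximate standard errors as lines, an asterisk on called genes, and colour by whether the promoter window held the stress element (orange), did not (blue) or was missing (grey). The 7 genes with the element had log2 fold changes from 0.30 to 0.90, and Hyou1, for which no window was at hand, had the highest, 1.80.

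Of 15 heat shock genes, which encode mostly cytosolic chaperones, 5 rose, 0 fell and 10 were not called (median 0.41). Hsp90aa1, the inducible HSP90, stood at 67.43 and 63.88 CPM against 160.5 and 149.5 CPM (log2 fold change 1.24, SE 0.12, adjusted p = 0.00057), a call that held without any 1 liver. Hspa8, the constitutive HSC70, rose by 1.09 (adjusted p = 0.00423, lost without fasted PBS replicate 1). Hspa1a and Hspa1b, the strongly inducible HSP70 genes, had log2 fold changes of -0.82 and 0.68 and were not called. The heat shock element, searched as GAA, TTC and GAA with 2 bases between each, was in 4 of 11 windows of the list, against 0.543% of all genes, and in 0 of the 2 called genes with windows. Of this list 2 genes were higher without fasted PBS replicate 1, 3 without replicate 2 and 2 under library totals alone. Of 16 targets of NRF2, the factor of the oxidative stress response, 2 rose, or 1 without PBS replicate 2 or either fasted PBS liver, and 4 fell. Hmox1, the inducible heme oxygenase, which macrophages also express, stood at 43.6 and 34.87 CPM against 11.31 and 12.46 CPM (log2 fold change -1.72, SE 0.16, adjusted p = 0.00048), and Nqo1 fell by 1.38 (adjusted p = 0.00733, lost without either fasted PBS liver), while Gclc and Gclm, which make glutathione, had 0.61 and 0.34 and were not called. Of 28 immediate early genes 1 rose and 7 fell (median -0.46). Myc fell from 15.55 and 16.65 CPM to 3.534 and 5.028 CPM (log2 fold change -1.92, SE 0.22, adjusted p = 0.00099). Egr1 had 30.11 and 36.02 CPM against 77.99 and 196.7 CPM and Fos 3.581 and 2.814 CPM against 3.157 and 17.7 CPM, and neither was called, fasted PBS replicate 2 standing above the other 3 livers in both. The count of immediate early genes that fell was 3 without fasted PBS replicate 1, when 4 rose.

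Markers of blood-borne and resident immune cells were lower in fasted PBS livers. In whole liver, fewer cells of a type and less RNA per cell cannot be told apart. Of 15 neutrophil markers tested of 18 listed, 13 were lower and 0 higher, 86.67% against 12.6% over all genes. S100a9, a subunit of calprotectin, stood at 30.66 and 21.05 CPM in PBS livers and at 0.4713 and 0.9093 CPM in fasted PBS livers, a log2 fold change of -5.24 (SE 0.34, adjusted p = 0.00022). Ngp, a granule protein of neutrophil precursors, had 695 and 616 counts against 1 and 4 (log2 fold change -7.03, adjusted p = 6.4e-05). Camp, the cathelicidin of granules, was counted 254 and 205 times in PBS livers and never in fasted PBS livers, which makes it at least 78.95-fold lower when the fasted group is set to a floor of 3 counts (adjusted p = 0.00033). Ltf, the lactoferrin of the same granules, fell by 7.39 (adjusted p = 6.4e-05). These 4 calls held without any 1 liver. The median log2 fold change of the neutrophil list was -4.83, or -4.69 with the genes at 0 set to their bound, and 8 were lower without either fasted PBS liver, 13 without PBS replicate 1 and 15 without PBS replicate 2. Of 5 erythroid markers tested, which mark blood in the tissue, 2 were lower and 0 higher (40% lower, against 12.6% over all genes), with a median of -0.63. The 2 were globin genes, Hba-a1 falling by 1.59 and Hbb-bt by 1.78 (adjusted p = 0.00149 and 6.1e-04), while Hba-a2, the near copy of Hba-a1, was not called. The part of blood in the leukocyte values was not tested. Lcn2, which hepatocytes also make, was not called (adjusted p = 0.304).

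Kupffer cells are the resident macrophages of the liver sinusoids. Of their 18 markers 11 were lower and 0 higher (median log2 fold change -1.96). Cd5l, a secreted protein of tissue macrophages, stood at 208.4 and 256.9 CPM against 34.54 and 65.36 CPM (log2 fold change -2.22, SE 0.35, adjusted p = 0.0162). C1qa, a subunit of complement C1q, stood at 115.5 and 115.1 CPM against 18.28 and 31.18 CPM (log2 fold change -2.22, SE 0.26, adjusted p = 0.00388). Timd4, a phosphatidylserine receptor of long-lived Kupffer cells, fell by 2.24 (adjusted p = 0.00352), whereas Clec4f, their most specific marker, had 118 and 168.3 CPM against 34.92 and 79.05 CPM and was not called (log2 fold change -1.33, adjusted p = 0.172). No gene of the list was at 0 in any liver. Fasted PBS replicate 1 was lower than replicate 2 in each of these genes, and both were below both PBS livers. C1qa and Timd4 kept their calls without any 1 liver, while Cd5l lost its call without either PBS liver. The count of lower genes was 5 without either PBS liver and 11 and 15 without fasted PBS replicates 1 and 2.

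Of 21 markers of monocytes and infiltrating macrophages 13 were lower and 0 higher (median -2.77). Ly6c2, the marker of inflammatory monocytes, had 12.7 and 5.321 CPM against 0.2356 and 0.3744 CPM (log2 fold change -4.88, SE 0.61, adjusted p = 0.00376, lost without either fasted PBS liver), and Lyz2, the lysozyme of myeloid cells, 147.6 and 139.3 CPM against 22.62 and 46.21 CPM (log2 fold change -2.06, adjusted p = 0.0275, lost without either PBS liver). Lgals3, the galectin of activated macrophages, fell by 3.11 (adjusted p = 0.00074), and its call held without any 1 liver. Fn1 and Ctsd, which hepatocytes express as well, had -0.11 and -0.02 and were not called. Of 23 markers of T, NK and B lymphocytes 15 were lower and 0 higher (median -2.35), all at low levels, their summed level being 71.3 and 50.88 CPM in PBS livers and 7.776 and 12.94 CPM in fasted PBS livers. Cd3e, a chain of the T cell receptor complex, had 77 and 41 counts against 4 and 1 (log2 fold change -3.58, adjusted p = 0.0108, lost without fasted PBS replicate 2). Jchain, of plasma cells, fell by 3.88 and Ccl5, a chemokine of T and NK cells, by 2.87 (adjusted p = 7.8e-05 and 0.0176), and both calls held without any 1 liver. Of 15 markers of antigen presenting cells 2 were lower and 0 higher, a share lower of 13.33% that is near the 12.6% of all genes, with a median of -1.94. H2-Aa, an MHC class II chain, stood at 183.8 and 71.86 CPM against 11.97 and 20.49 CPM and was not called (adjusted p = 0.0853), PBS replicate 1 lying far above PBS replicate 2. Without PBS replicates 1 and 2, 8 and 9 of this list were lower, and without fasted PBS replicate 1, 0 were. Monocyte markers lower numbered 8 without PBS replicate 1 and 5 without either fasted PBS liver, and lymphocyte markers 8 without PBS replicate 1 and 4 and 8 without fasted PBS replicates 1 and 2.

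**Figure D5:**
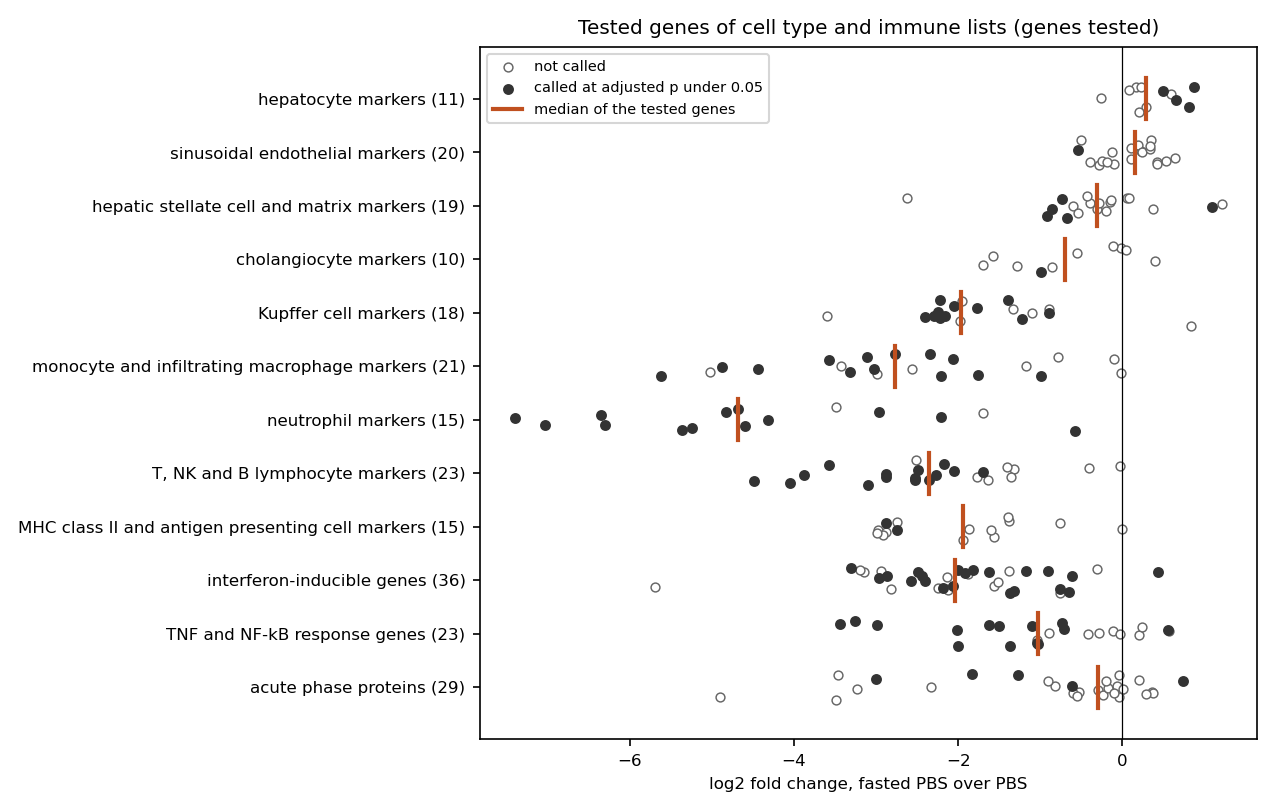
Log2 fold change, fasted PBS over PBS, of every tested gene of 12 cell type and immune lists, filled where called, with an orange line at the median and genes at 0 in a group set to their bound. Markers of hepatocytes and sinusoidal endothelium lay around 0, with medians of 0.29 and 0.15 (0.02 and -0.11 under library totals alone), while those of neutrophils lay lowest, with a median of -4.69.

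Markers of sinusoidal endothelium, stellate cells and cholangiocytes had smaller median changes than the immune cell markers. Of 20 markers of sinusoidal endothelium 0 rose and 1 fell (median 0.15, and -0.11 under library totals alone), and Stab2, a scavenger receptor of these cells, was at 38.29, 51.75, 40.29 and 43.54 CPM. Mrc1, the gene that fell (log2 fold change -0.54, adjusted p = 0.04), is also expressed by macrophages, and its call was lost without PBS replicate 2 or either fasted PBS liver. Without PBS replicate 2, 5 endothelial markers were higher. Of 19 markers of stellate cells and matrix 1 rose and 4 fell (median -0.31). The share lower was 21.05%, against 12.6% over all genes. Dcn, the matrix proteoglycan decorin, stood at 162.4 and 189.3 CPM against 100.4 and 93.33 CPM (log2 fold change -0.86, SE 0.13, adjusted p = 0.00381, lost without either fasted PBS liver), whereas Lrat and Reln, which define quiescent stellate cells, had 0.06 and -0.15 and were not called. Fewer of the stellate list fell without fasted PBS replicates 1 and 2 (0 and 1), and more without PBS replicate 2 (7). Of 10 cholangiocyte markers 0 rose and 1 fell, with a median of -0.70. The gene that fell was Spp1, which macrophages share and whose call was lost without either fasted PBS liver. Krt19 had 0.39 (adjusted p = 0.625).

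Interferon-inducible genes were lower as a group. Of 36 tested, 20 fell and 1 rose, with a median log2 fold change of -2.03. Ifit3, an antiviral effector, stood at 70.83 and 49.76 CPM in PBS livers and at 13.05 and 15.89 CPM in fasted PBS livers (log2 fold change -2.06, SE 0.20, adjusted p = 0.00091). Ifit1, of the same family, stood at 41.71 and 28.24 CPM against 9.095 and 10.7 CPM (log2 fold change -1.82, SE 0.22, adjusted p = 0.00161). Irf7, the factor that amplifies the interferon response, fell by 1.32 (SE 0.17, adjusted p = 0.0016). The calls of these 3 genes held without any 1 liver. The PBS livers differed from each other in another set, the GTPases and presentation genes that interferon gamma induces. Tgtp1 stood at 602.5 CPM in PBS replicate 1, 58.94 CPM in replicate 2, and 8.059 and 4.6 CPM in fasted PBS livers. Iigp1 stood at 2626, 613, 324.9 and 411.4 CPM. Neither was called (adjusted p = 0.175 and 0.231), although the groups did not overlap, and PBS replicate 1 lay far above replicate 2 in each. The list held 30 lower genes without PBS replicate 1, 32 without PBS replicate 2, and 10 and 14 without fasted PBS replicates 1 and 2. Stat2 was the gene that rose (log2 fold change 0.43, adjusted p = 0.0272), a call lost without either fasted PBS liver.

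Promoters of 3 interferon-inducible genes are shown with the core of the interferon-stimulated response element, which the factors activated by interferon bind. It was searched on both strands as GAAA and GAAA with 2 bases between them, and windows and capitals are as above.
Ifit1, chr19:34640639-34640938, plus strand: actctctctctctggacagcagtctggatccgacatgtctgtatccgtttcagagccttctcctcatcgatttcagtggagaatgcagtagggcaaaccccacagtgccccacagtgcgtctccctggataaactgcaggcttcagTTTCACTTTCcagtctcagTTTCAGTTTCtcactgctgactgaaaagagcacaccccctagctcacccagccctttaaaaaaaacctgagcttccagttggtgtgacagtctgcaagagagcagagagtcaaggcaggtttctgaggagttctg
Isg15, chr4:156200769-156201068, minus strand: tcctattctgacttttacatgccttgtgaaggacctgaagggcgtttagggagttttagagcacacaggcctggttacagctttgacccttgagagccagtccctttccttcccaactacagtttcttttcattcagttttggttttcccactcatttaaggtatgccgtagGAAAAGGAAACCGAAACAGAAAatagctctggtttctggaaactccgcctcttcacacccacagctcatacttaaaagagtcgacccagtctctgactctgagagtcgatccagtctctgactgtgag
Cxcl10, chr5:92348840-92349139, minus strand: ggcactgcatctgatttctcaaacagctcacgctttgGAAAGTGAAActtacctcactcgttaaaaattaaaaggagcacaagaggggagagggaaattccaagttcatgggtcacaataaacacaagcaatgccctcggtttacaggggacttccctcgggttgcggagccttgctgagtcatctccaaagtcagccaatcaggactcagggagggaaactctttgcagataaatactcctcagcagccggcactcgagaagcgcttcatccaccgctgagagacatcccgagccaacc
Ifit1 held 2 matches and Isg15 3, which overlap in part, and Cxcl10 held 1. All of these genes were lower, Isg15 by 1.17 (adjusted p = 0.00539, lost without fasted PBS replicate 1) and Cxcl10, a chemokine for T cells, by 2.87 (adjusted p = 0.0263, lost without either fasted PBS liver). The element was in 3.97% of all genes with windows and in 15 of 28 genes of the list. It was in 8 of the 17 called lower and in 7 of the other 11.

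Of 23 tested TNF and NF-kB response genes 13 fell and 1 rose (median -1.02). Vcam1, an adhesion molecule for leukocytes, stood at 41.16 and 27.22 CPM against 7.022 and 9.948 CPM (log2 fold change -2.01, SE 0.27, adjusted p = 0.0042), and Il1b, interleukin 1 beta, fell by 2.99 (adjusted p = 0.00375). Both calls held without any 1 liver. Tnf was near silent, with 71 and 23 counts against 4 and 1 (log2 fold change -3.25, adjusted p = 0.033, lost without PBS replicate 1 or either fasted PBS liver). Nfkbia, the inhibitor that NF-kB induces, rose by 0.56 (adjusted p = 0.0119, lost without either fasted PBS liver). The receptor the study follows, Tnfrsf12a, was at 4.103, 4.656, 4.995 and 5.349 CPM and was not called (log2 fold change 0.24, SE 0.23, adjusted p = 0.488). Its ligand TWEAK, encoded by Tnfsf12, stood at 17.54 and 11.87 CPM against 7.776 and 6.472 CPM (log2 fold change -1.04, SE 0.23, adjusted p = 0.0162, lost without either fasted PBS liver). Tnfsf12 overlaps another annotated gene. Genes lower in this list numbered 8 without PBS replicate 1, and 3 and 5 without fasted PBS replicates 1 and 2.

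Of 29 acute phase genes, whose products hepatocytes secrete under interleukin 6 and interleukin 1, 1 was higher (3.45%, against 12.0% of all genes) and 4 were lower (13.8%, against 12.6%), with a median of -0.30. PBS replicate 1 stood apart in them. Saa1, serum amyloid A1, was at 2698 CPM in that liver and at 108.6, 164.5 and 394.3 CPM in the other 3, and Saa2 at 2493 CPM against 69.2, 51.13 and 180.5 CPM. Lcn2, lipocalin 2, was at 437.5 CPM against 33, 21.35 and 20.7 CPM. These genes were not called (adjusted p = 0.515, 0.427 and 0.304). Crp rose by 0.74 and Hamp, which encodes the iron hormone hepcidin, fell from 409.6 and 596.7 CPM to 253.6 and 162.8 CPM (log2 fold change -1.27, SE 0.28, adjusted p = 0.0281, lost without PBS replicate 2 or fasted PBS replicate 2). Orm3, an orosomucoid with close paralogs, stood at 15.29 and 10.36 CPM against 1.885 and 1.284 CPM (adjusted p = 0.00062). Without PBS replicate 1, 3 genes were higher and 6 lower, without PBS replicate 2, 1 and 11, and without either fasted PBS liver, 0 and 2. Crp lost its call without either fasted PBS liver. The same PBS liver was the higher of the pair in summed interferon-inducible genes (6899 against 2645 CPM) and neutrophil markers (912.7 against 399.4 CPM). Lcn2 made up much of the latter gap, and without it neutrophil markers summed to 475.2 and 366.3 CPM in PBS livers and to 216 and 215.3 CPM in fasted PBS livers. Most of each remaining sum was Wfdc21, at 349 and 279.4 CPM in PBS livers and at 212 and 210.7 CPM in fasted PBS livers. Its log2 fold change was -0.57, against a median of -4.83 for the list, so these sums say little about the other neutrophil markers. Without PBS replicate 1, 30 interferon-inducible genes and 13 neutrophil markers were lower.

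The largest single changes were of another kind. Of the 20 genes with the largest changes among those of at least 10 CPM, 14 overlap another annotated gene and 12 carry names of predicted genes. C1rb, a paralog of the complement protease gene C1ra, was counted 2782 and 2436 times in PBS livers and never in fasted PBS livers, at least 897.5-fold lower by the same floor (adjusted p = 2e-05). Gm4737 stood at 271.4 and 314 CPM against 1.461 and 0.3744 CPM. Gm7298 stood at 15.92 and 18.37 CPM against 2387 and 2007 CPM, and Ces1a, a carboxylesterase among close paralogs, had 0 and 4 counts against 1573 and 1346. Lrrc24 and Hcn3 fell by 8.01 and 5.54, and Cmss1 rose by 5.67, all in genes that overlap another. S100a9 was the only gene of the 20 that is also in a list described above. Of the 20, 16 kept their calls without any 1 liver. The reads of overlapping and copied genes depend on the counting, so these changes cannot be told apart from a difference between the tables. Over all called genes the share overlapping another was 58.2% at log2 changes up to 1 in size and 47.1% above 3, against 54.57% of all genes tested.

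The genes left out show the same limit. Gapdh, which has many pseudogenes, stood at 212.5 and 320.7 CPM in PBS livers and at 1080 and 1007 CPM in fasted PBS livers. Mt-Co2, a mitochondrial gene with nuclear copies, was at 3830 and 3608 CPM against 440 and 276.5 CPM, while mt-Nd4, encoded on the same molecule, was at 5332, 5645, 6504 and 5892 CPM. Of 8303 processed pseudogenes, 2172 and 1947 had counts in PBS livers and 641 and 629 in fasted PBS livers. Of 1124 microRNA genes it was 302 and 316 against 7 and 4. Their part in the changes of the genes kept was not tested.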

How the data were processed

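RNA-seq of 4 livers, 2 fed PBS and 2 fasted PBS, was used. Per the submitters' processing notes, the tools were featureCounts, HISAT2 and Trim Galore, with builds GRCm38 and mm10. Tool versions are not given in the sources used here. The authors deposited whole-number counts per gene for the PBS livers. The authors deposited estimated counts for the fasted PBS livers, of which 28.6% and 27.0% of the values above 0 were not whole, and these were rounded. The planned test had assumed counts in both tables. Entries that name no gene held 0.457% and 0.498% of the fasted PBS counts and were left out. Totals ranged from 22431889 to 41453751. No column of other samples was set aside. Protein-coding genes were taken from GENCODE M21. Genes passing filterByExpr (minimum count 10, total 15) were scaled by TMM and tested with edgeR 4.0.16 in R 4.3.3 with limma 3.58.1, with Benjamini-Hochberg adjustment over 13195 genes and a threshold of 0.05. SE was computed as the fold change over the root of F. Python 3.11.15, pandas 2.3.3 and matplotlib 3.10.9 made the summaries. The replicates of a group differed by more than sampling noise (chi-square per degree of freedom 101 and 21.6). On simulated data of 12967 genes with 200 changed, 57% of 2-fold and 89% of 4-fold changes were recovered, and 15.1% of calls were false, above the level aimed at. Alternatives were DESeq2 1.42.0, other scalings, other filters, all 8 livers, the replicate block, a gene length trend, rounding down and each liver left out.

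The comparison, the 33 gene lists (715 genes) and the tests were chosen with earlier results of these data known. Some genes of the lists are counted but not reported here by name. Named genes were key genes, the 10 largest changes each way at a mean of at least 10 CPM, and up to 3 called genes of the highest CPM per list and direction. Other genes, chosen after their values were seen, as were the promoter motifs, were Acads, Adipoq, Arg1, Ass1, Atf4, Atf5, Bdh1, Bhlhe41, Camp, Canx, Ccne1, Cdk1, Cps1, Creld2, Cry2, Ctsd, Cxcl10, Cyp27a1, Cyp2e1, Cyp3a25, Ddit3, Ddit4, Dnajc3, Egr1, Elovl3, Etnppl, Fbp1, Fkbp5, Fn1, Fos, Gclc, Gclm, Ghr, Glul, Gstm2, Gys2, Hadhb, Hba-a2, Herpud1, Hsd3b5, Hspa1a, Hspa1b, Hyou1, Ifit3, Iigp1, Il1b, Insig2, Klb, Klf15, Klf9, Krt19, Kynu, Lgals3, Lrat, Ltf, Ly6c2, Mpc1, Nr0b2, Nr3c1, Otc, Pcna, Pcx, Pdia6, Plin1, Ppara, Ppp1r3c, Reln, Slc25a15, Slc37a4, Slc38a2, Stab2, Stat5b, Tgtp1, Timd4, Tnf, Tnfrsf12a, Tnfsf12, Tsc22d3, Wee1 and Zbtb16.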

Additional observations from a re-analysis of the deposited data

How the results depend on the processing

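Of 131 genes named by the rule and called, 49 were called in all 4 fits without 1 liver. Calls lost numbered 71 and 65 without fasted PBS replicates 1 and 2, 22 and 18 without PBS replicates 1 and 2, 39 with all 8 livers in the fit, 31 under library totals alone, 27 with the replicate number as a block, 15 of 114 at a mean of at least 10 CPM, 13 with upper quartile factors, 8 with no filter on low counts and 1 with DESeq2. The causes were not tested. The direction turned in 1 gene of the 173, Ciart, which ranged from -1.41 to 0.89 on the log2 scale, the former without fasted PBS replicate 1 and the latter without replicate 2. Without 1 liver, genes higher ranged from 612 to 1966 and genes lower from 596 to 1752. Library totals alone gave 818 higher and 2975 lower. A mean of at least 10 CPM gave 928 higher and 869 lower, and leaving out genes that overlap another gave 688 and 776, both over fewer genes tested (7744 and 5994). All genes of both tables gave 2573 lower. The replicate block gave 1490 higher and 1516 lower. Deviations of same-numbered livers from their group means were hardly correlated across genes (Pearson's r of -0.0531 over 13195 genes). With 1 such pair of deviations, this cannot show whether the numbers mark a shared batch or order. Depth limits the rarest markers, which have fewer than 5 counts in a fasted PBS liver.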

Other observations

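Of 27 tested genes of the cell cycle, 7 fell, 0 rose and 20 were not called, with a median log2 fold change of -0.56. The share lower was 25.9%, against 12.6% of all genes. Mki67, the proliferation marker Ki-67, stood at 12.05 and 8.442 CPM in PBS livers and at 3.299 and 2.995 CPM in fasted PBS livers (log2 fold change -1.70, SE 0.25, adjusted p = 0.00317 in edgeR's quasi-likelihood test), and Ccne1, the cyclin of entry into S phase, fell by 2.71 (adjusted p = 0.00318). Both calls held without any 1 liver. Ccnd1, the cyclin that hepatocytes raise on entering the cycle, stood at 43.46 and 67.49 CPM against 22.29 and 22.79 CPM (adjusted p = 0.00811, lost without either fasted PBS liver). Pcna, which DNA replication and repair share, was at 28.31, 25.84, 28.18 and 26.69 CPM, and Cdk1, the kinase of mitosis, at 3.319, 2.763, 2.074 and 2.888 CPM, and neither was called. Without PBS replicate 1, 4 of the list fell, and without fasted PBS replicates 1 and 2, 2 and 3. Leukocyte markers were lower in the same livers, and their part in these values was not tested.

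Globin genes mark the blood left in the tissue, and their close copies make single values uncertain. Hba-a1 stood at 128.7 and 92.38 CPM against 33.79 and 39.69 CPM (log2 fold change -1.59, adjusted p = 0.00149) and Hbb-bt at 50.78 and 37.3 CPM against 12.21 and 13.37 CPM (log2 fold change -1.78, adjusted p = 6.1e-04). Both calls held without any 1 liver and were lost with all 8 livers in the fit. Hba-a2, the near copy of Hba-a1, stood at 125, 83.4, 71.11 and 63.65 CPM and was not called (adjusted p = 0.0671). Summed erythroid markers came to 559.6 and 426.8 CPM in PBS livers and to 343 and 319 CPM in fasted PBS livers. Of 4 tested markers of pancreas, gut and adipose tissue, 1 was higher and 0 lower (25% higher, against 12.0% over all genes). It was Cela1, at 6.717 and 7.24 CPM against 35.77 and 20.7 CPM (log2 fold change 2.02, SE 0.27, adjusted p = 0.00471). Its call held without any 1 liver. Adipoq, the adipocyte hormone adiponectin, had counts in 1 liver only, 22 in fasted PBS replicate 2, and Plin1, of adipocyte lipid droplets, had 0, 0, 2 and 24 counts.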
